A study of Mus musculus with 6 samples.

Results

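The genes described here are the costimulatory and inhibitory receptors of the CD28 family and the receptors usually studied beside them, 10 genes of the 24420 in the deposited table. They were taken by symbol from a named list, which was drawn up with earlier results of these data known. Cd28, Icos, Ctla4, Pdcd1 (PD-1) and Btla are the 5 commonly grouped as the CD28 family. Tigit, Lag3, Havcr2 (TIM-3) and Cd160 are further inhibitory or co-signalling receptors, and Cd200 encodes a membrane ligand for an inhibitory receptor on myeloid cells. All 10 had enough reads to be among the 10949 genes tested, with between 19 and 878 counts in a sample.

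RNA of regulatory T (Treg) cells, the FOXP3-expressing CD4 T cells that restrain immune responses, was sequenced from 3 OGT-sufficient and 3 OGT-deficient samples. OGT is the enzyme that attaches O-GlcNAc, a single sugar, to serine and threonine residues of intracellular proteins, and its gene Ogt lies on the X chromosome. The comparison asks how the Treg transcriptome differs without this enzyme. Both groups came from lymph nodes of female C57BL/6 mice carrying Foxp3 YFP-Cre/wt, whose age the labels do not give and for which the study's methods state only a general range. OGT-sufficient mice were Ogt wt/fl and OGT-deficient mice were Ogt fl/fl, so every sample carried at least 1 floxed Ogt allele and the Cre. Cre was driven by the endogenous Foxp3 locus, which also lies on the X chromosome, and random X inactivation left these females with YFP-negative Treg cells of their own that express no Cre. CD4 cells were enriched on beads and YFP-positive cells were then sorted. The labels do not say whether each sample was 1 animal, so p-values measure the spread between these samples.

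The check of the targeted gene came first. Ogt measured 149.6, 169.6 and 251 CPM (counts scaled to a common library size, after TMM scaling) in the OGT-sufficient group and 84.0, 67.0 and 96.0 CPM in the OGT-deficient group, a log2 fold change of -1.21 ± 0.21 (SE, n = 3 per group, edgeR adjusted p = 0.191). Library totals ran from 3375454 to 4103552 counts, and the ribosomal precursor Rn45s took 24.2% to 37.1% of them. OGT-sufficient replicate 3 stood apart, where 18346 genes held a count and 14412 to 15197 did elsewhere, and with the lowest Rn45s share. Results that rest on it are therefore given with and without it. Without it the Ogt log2 fold change was -0.94 ± 0.16 (SE, edgeR adjusted p = 0.14). The 10 Treg markers, Foxp3 and Il2ra among them, all held over 3 counts in every sample and summed to between 2402 and 3602 CPM. Red pulp and tissue macrophage markers, which a CD4 and YFP sort should remove, were also present, all 10 above 3 counts in every sample, and summed to 1697 to 3676 CPM in the OGT-sufficient and 1191 to 5149 CPM in the OGT-deficient group. B cell markers were highest in OGT-sufficient replicate 3, at 327 CPM against 82.5 to 150.4 CPM in the others.

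T cells need a second signal beside the T cell receptor, and CD28 supplies it when it meets CD80 or CD86 on an antigen-presenting cell. ICOS gives a related signal through PI3-kinase. CTLA-4 binds the same ligands as CD28 more tightly and strips them from the presenting cell, and Treg cells are known for carrying much of it. PD-1, BTLA, TIGIT, LAG-3 and TIM-3 dampen signalling and are found on activated and tissue Treg cells.

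None of the 10 receptors passed an adjusted p of 0.1 in edgeR's quasi-likelihood test or in any of the other fits run, DESeq2 and edgeR's exact test included. Over all genes tested 3 passed it, or 0.0274%. Tigit was 2.03-fold lower and Pdcd1 1.60-fold lower in the OGT-deficient samples, the 2 members with an unadjusted p under 0.01, which 1.84% of all genes had and 0.959% had in the lower direction. At an unadjusted p under 0.05 Icos was also lower and Lag3 was higher, making 4 of 10 members beside 7.10% of all genes, with 3 lower beside 4.01% and 1 higher beside 3.09%. Cd28, Ctla4, Btla, Havcr2, Cd160 and Cd200 had unadjusted p-values of 0.187 or more. The 10 members had a median log2 fold change of -0.014 and all genes tested one of -0.017. Fewer cells of a kind and less RNA per cell cannot be told apart in bulk samples such as these.

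Pdcd1 and Tigit, both lower and both without overlap between the groups, are shown first by the 250 bases before their start, with those of Ctla4, whose level is discussed beside theirs, for comparison. The sequences are from RefSeq on GRCm38.p6, which held promoters of 7 of the 10 members and none for Cd28, Icos and Lag3. They cover chr1:94052554-94052803 (minus strand) for Pdcd1, chr16:43664185-43664434 (minus strand) for Tigit and chr1:60908775-60909024 (plus strand) for Ctla4, each read 5′ to 3′ along its gene. The RefSeq start used for Ctla4 lies within the longer gene span of GENCODE M21, whose start is further upstream. Capitals mark any match, on either strand, to letters used by factors active in T cells: TTCNNNGAA (STAT), TGGAAA (NFAT), TGANTCA (AP-1) and TGTTTAC (forkhead).
Pdcd1: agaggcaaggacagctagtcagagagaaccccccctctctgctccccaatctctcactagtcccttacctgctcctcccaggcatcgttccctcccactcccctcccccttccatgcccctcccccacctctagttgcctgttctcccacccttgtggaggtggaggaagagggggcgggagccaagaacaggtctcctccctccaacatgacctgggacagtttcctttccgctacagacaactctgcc
Tigit: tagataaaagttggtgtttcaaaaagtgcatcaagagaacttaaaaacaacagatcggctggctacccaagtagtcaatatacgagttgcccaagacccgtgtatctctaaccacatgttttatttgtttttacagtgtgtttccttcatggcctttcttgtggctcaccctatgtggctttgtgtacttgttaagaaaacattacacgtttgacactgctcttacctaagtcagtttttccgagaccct
Ctla4: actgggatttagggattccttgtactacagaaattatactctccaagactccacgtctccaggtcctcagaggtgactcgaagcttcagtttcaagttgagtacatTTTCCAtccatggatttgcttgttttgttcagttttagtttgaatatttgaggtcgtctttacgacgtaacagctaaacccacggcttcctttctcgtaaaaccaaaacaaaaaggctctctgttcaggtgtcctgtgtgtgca
The Pdcd1 and Tigit windows held none of the 4 letter patterns. Ctla4 held 1 match to the NFAT letters, on the opposite strand, 144 to 139 bases before the start. Of 32536 promoter windows of this length, 18.6% held the NFAT letters, 7.04% the STAT letters, 6.73% the AP-1 letters and 3.17% the forkhead letters. Among the other members, Havcr2 held 1 AP-1 match, 200 to 194 bases before its start, and 1 of the 2 Cd160 windows held a STAT match, 234 to 226 bases before its start. G and C made up 60.4% of the Pdcd1 window, 40.0% of the Tigit window and 42.4% of the Ctla4 window. These matches describe letters only and were not tested for binding.

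Pdcd1 encodes PD-1, which recruits the phosphatase SHP-2 when it meets PD-L1 or PD-L2, and lies at chr1:94038305-94052553 (mm10). The OGT-sufficient samples held 35.7, 35.9 and 27.3 CPM, the OGT-deficient samples 24.7, 17.6 and 19.6 CPM. Every OGT-deficient sample was below every OGT-sufficient one. The group means were 33.0 ± 4.93 and 20.6 ± 3.63 CPM (SD, n = 3), and the log2 fold change was -0.68 ± 0.19 (SE, 95% interval -1.10 to -0.26; edgeR unadjusted p = 0.00544, adjusted p = 0.46). The samples nearest each other were OGT-sufficient replicate 3, with 104 counts and an exact Poisson 95% interval of 22.3 to 33.0 CPM, and OGT-deficient replicate 1, with 96 counts and an interval of 20.0 to 30.1 CPM. Their order is therefore within counting error, while OGT-deficient replicates 2 and 3 reached at most 22.3 and 24.5 CPM in theirs, below the 29.9 and 30.1 CPM at the low end of OGT-sufficient replicates 1 and 2. Counting intervals cover counting error only.

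Tigit encodes an inhibitory receptor that binds CD155 in competition with the activating receptor CD226, and lies at chr16:43648867-43664146. Its levels were 18.1, 19.3 and 11.5 CPM with OGT and 10.3, 8.06 and 5.74 CPM without it. The groups did not overlap, although the gap between OGT-sufficient replicate 3 (44 counts) and OGT-deficient replicate 1 (40 counts) was smaller than the counting error of either, at 8.38 to 15.5 and 7.34 to 14.0 CPM. Means were 16.3 ± 4.18 and 8.03 ± 2.27 CPM (SD, n = 3), with a log2 fold change of -1.02 ± 0.28 (SE, 95% interval -1.66 to -0.37; edgeR unadjusted p = 0.00604, adjusted p = 0.463). Because the groups did not overlap, leaving out a sample could not turn the direction of either Pdcd1 or Tigit. With a sample left out the log2 fold change was -0.82 to -0.54 for Pdcd1 and -1.23 to -0.80 for Tigit. The unadjusted p-values were then at most 0.0361 and 0.0298 (edgeR). The unadjusted p rose above 0.01 for both without OGT-sufficient replicate 1 (0.0306 for Pdcd1 and 0.0281 for Tigit), without OGT-sufficient replicate 2 (0.024 and 0.0275), without OGT-deficient replicate 2 (0.0361 and 0.0237) and without OGT-deficient replicate 3 (0.0286 and 0.0298). Without OGT-sufficient replicate 3 the log2 fold changes were -0.78 ± 0.18 and -1.21 ± 0.26 (SE). In DESeq2 Tigit kept an unadjusted p under 0.01, at 0.00797, and Pdcd1 had 0.0113.

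**Figure D1:**
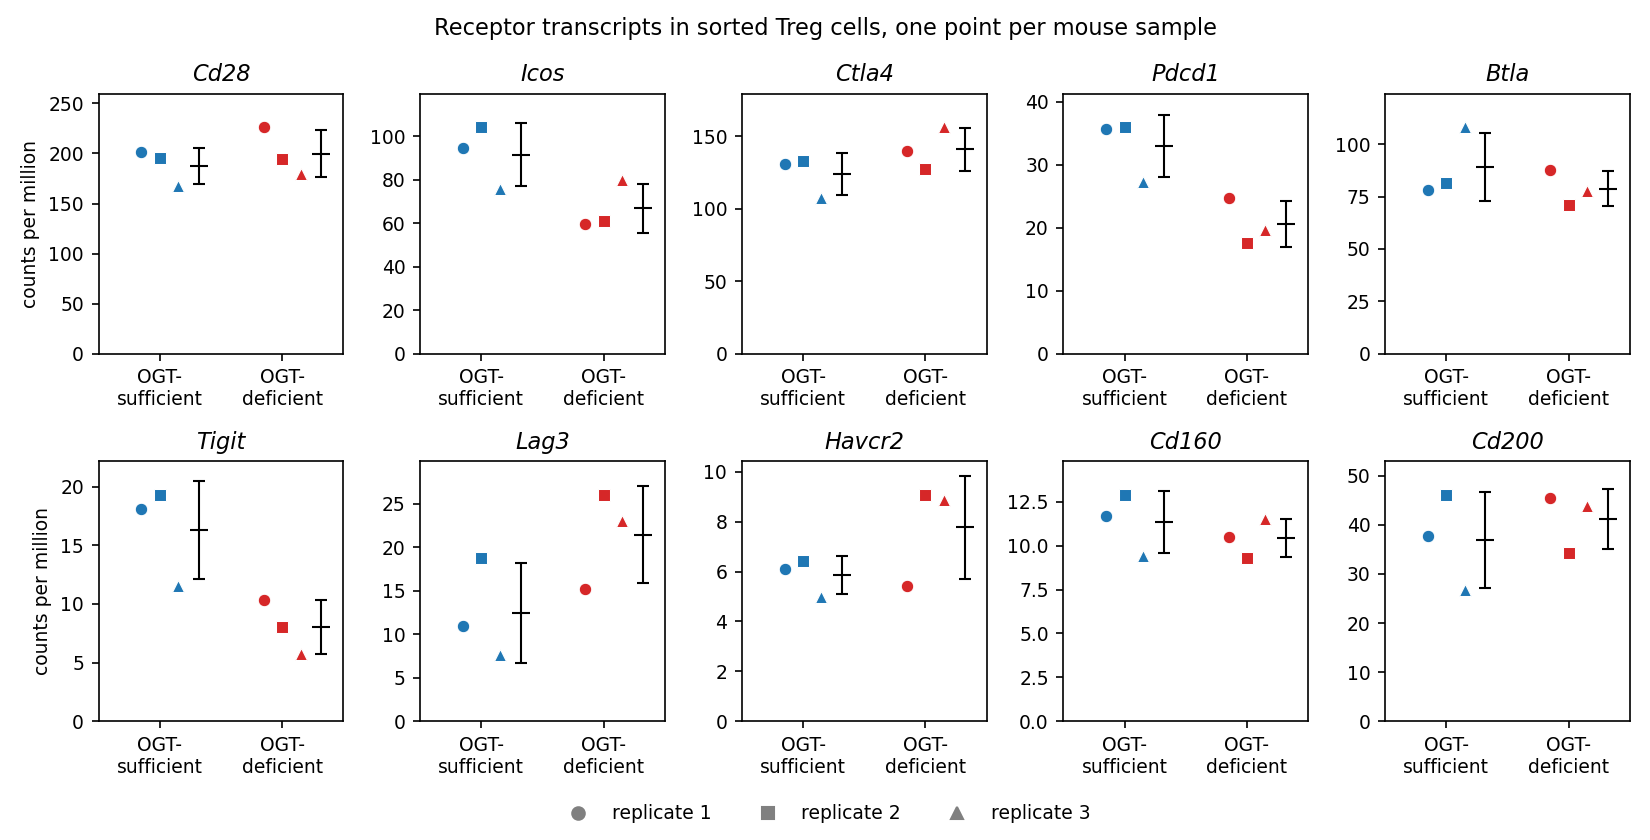
Levels of the 10 receptor transcripts in CPM, with a point per sample and a panel per gene. Bars are the mean ± SD of each group (n = 3). Marker shapes give replicate numbers, which were not used as pairs in the reported fit. In the Pdcd1 and Tigit panels all OGT-deficient points lie below all OGT-sufficient points, and in the other 8 panels the groups overlap.

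The groups did not overlap for 2 of the 10 members, Pdcd1 and Tigit, both in the lower direction. Among all genes tested 13.2% did not overlap and 7.48% lay lower without overlap, so 2 of 10 is close to what the whole table gives.

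Cd28, Ctla4 and Icos sit side by side on chromosome 1 within 284 kb, at chr1:60716800-60773359, chr1:60887000-60915832 and chr1:60977927-61000320. Gm37039 lies within Icos and the pseudogene Rpl18-ps1 within Ctla4, without shared exon bases in GENCODE M21. Of these 3 neighbours, Icos had the largest difference. Icos, the costimulatory receptor that binds ICOSL, measured 94.7, 104 and 75.8 CPM in OGT-sufficient and 59.6, 61.2 and 79.9 CPM in OGT-deficient samples. OGT-deficient replicates 1 and 2 were below all controls, while OGT-deficient replicate 3 was above OGT-sufficient replicate 3, so the groups overlapped. The log2 fold change was -0.45 ± 0.16 (SE, 95% interval -0.82 to -0.078; edgeR unadjusted p = 0.0231, adjusted p = 0.6). Without OGT-sufficient replicate 3 it was -0.56 ± 0.15 (SE; edgeR unadjusted p = 0.00438), and without OGT-deficient replicate 3 it was -0.56 (unadjusted p = 0.0118). Leaving out any of the other 4 samples raised the unadjusted p to between 0.0752 and 0.112 (edgeR), with a log2 fold change of -0.35 to -0.39.

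Cd28, the receptor that gives the family its name, stood at 201, 195 and 167 CPM with OGT and 226, 194 and 179.6 CPM without it. The groups overlapped and the log2 fold change was 0.09 ± 0.13 (SE, 95% interval -0.20 to 0.38; edgeR adjusted p = 0.906), which turned to -0.0051 without OGT-deficient replicate 1. Ctla4 showed 131, 133 and 107 CPM against 139.5, 127 and 156 CPM. OGT-deficient replicate 3 was the highest and OGT-sufficient replicate 3 the lowest of the 6, and the remaining 4 lay between 127 and 139.5 CPM. Its log2 fold change was 0.19 ± 0.13 (SE, 95% interval -0.12 to 0.49; edgeR adjusted p = 0.792). These intervals leave room for Cd28 to be up to 1.30-fold and Ctla4 up to 1.40-fold higher in the OGT-deficient samples.

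To set receptors against each other, 3 ratios were taken within each library, where no scaling enters. In 2 of them the receptors compete for a ligand, and Icos to Cd28 sets the costimulatory receptors of the family side by side. Counts of Icos relative to Cd28 were 0.471, 0.533 and 0.453 with OGT and 0.264, 0.315 and 0.445 without it. All 3 of the latter were lower, on average by a log2 difference of -0.54 (exact two-sided permutation p = 0.1, n = 3 per group; adjusted over the 3 ratios, 0.15). OGT-deficient replicate 3 came close to the controls. Tigit relative to Cd226, which share CD155 as a ligand, was 0.342, 0.36 and 0.257 with OGT and 0.25, 0.194 and 0.128 without it. These groups did not overlap either, with a log2 difference of -0.78 (exact permutation p = 0.1, n = 3; adjusted 0.15). The nearest samples were OGT-sufficient replicate 3, with 44 Tigit to 171 Cd226 counts, and OGT-deficient replicate 1, with 40 to 160. Their ratios of 0.257 and 0.25 were closer than their Tigit levels of 11.5 and 10.3 CPM, whose counting intervals overlapped. The ratio of Ctla4 to Cd28, which compete for CD80 and CD86, was 0.653, 0.685 and 0.638 against 0.618, 0.652 and 0.871. The groups overlapped (log2 difference 0.10, exact permutation p = 0.9, n = 3; adjusted 0.9), and without OGT-deficient replicate 3 the difference became -0.052. The smallest p that 3 against 3 samples allow is 0.1, so these tests could not reach 0.05.

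**Figure D2:**
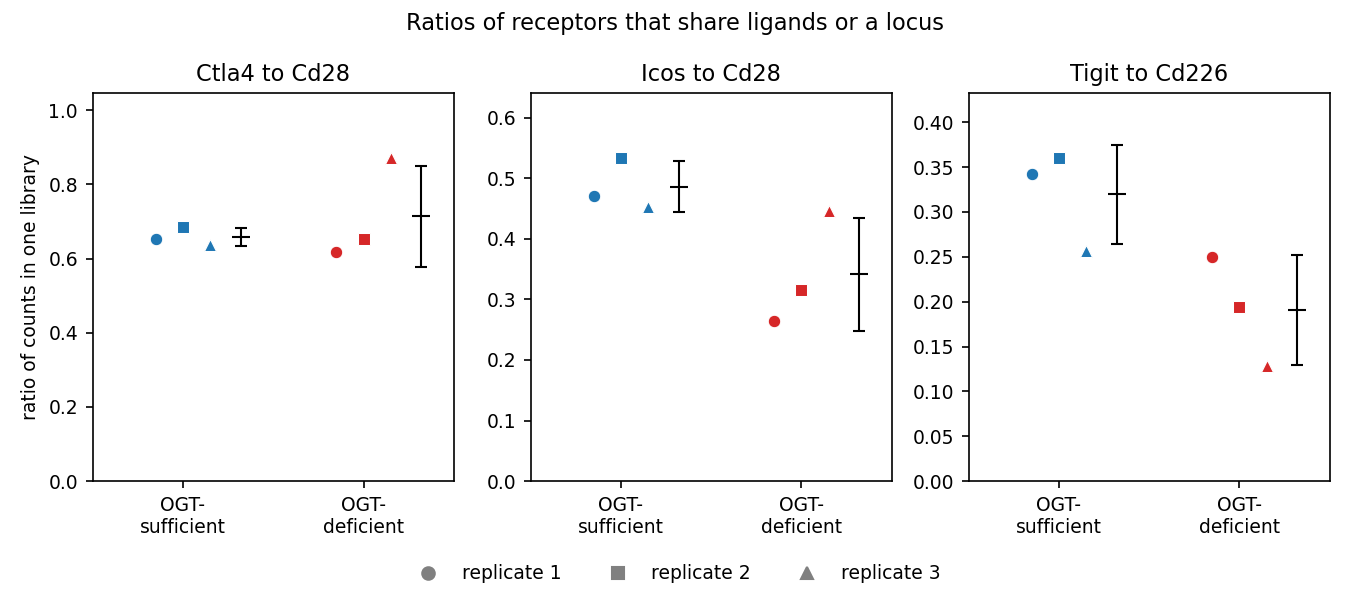
Ratio of the counts of 2 genes in each library (no unit), with bars for the mean ± SD of the 3 ratios in each group. Every OGT-deficient sample has a lower Icos to Cd28 and Tigit to Cd226 ratio than every OGT-sufficient sample, with 0.25 against 0.257 for the nearest Tigit to Cd226 ratios, and the Ctla4 to Cd28 ratios overlap.

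Lag3, whose product binds MHC class II, was the member with a higher level at an unadjusted p under 0.05. It measured 10.9, 18.8 and 7.60 CPM in OGT-sufficient and 15.2, 26.0 and 23.0 CPM in OGT-deficient samples. OGT-deficient replicates 2 and 3 were the 2 highest, but OGT-sufficient replicate 2 lay above OGT-deficient replicate 1, so the groups overlapped. The log2 fold change was 0.78 ± 0.33 (SE, 95% interval 0.03 to 1.53; edgeR unadjusted p = 0.0432, adjusted p = 0.685). Its within-group spread was the widest of any member, at a coefficient of variation of 46.2% in the OGT-sufficient group. Without OGT-sufficient replicate 2 the log2 fold change was 1.21 (edgeR unadjusted p = 0.00475), and without OGT-deficient replicate 1 it was 0.98 (unadjusted p = 0.0155). Leaving out OGT-sufficient replicate 1 or 3, or OGT-deficient replicate 2 or 3, gave unadjusted p-values of 0.102, 0.104, 0.131 and 0.0926 (edgeR), the lowest fold change being 0.53 without OGT-sufficient replicate 3.

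Havcr2 encodes TIM-3, which myeloid cells also express. Its levels were 6.12, 6.44 and 4.98 CPM in OGT-sufficient and 5.40, 9.07 and 8.87 CPM in OGT-deficient samples, from 19 to 36 counts each. OGT-deficient replicate 1 lay among the controls and the other 2 were above them all (log2 fold change 0.41 ± 0.29, SE; 95% interval -0.24 to 1.06; edgeR adjusted p = 0.787). Samples with high Havcr2 also had high macrophage markers. The summed level of the 10 macrophage markers was 3676, 3069 and 1697 CPM in the OGT-sufficient and 1191, 4299 and 5149 CPM in OGT-deficient samples, so that the 2 highest and the 2 lowest samples were the same for the markers and for Havcr2. Csf1r, the receptor of a macrophage growth factor, ranged from 138 to 892 CPM, and none of the 10 markers had an unadjusted p under 0.05 between the groups. For Lag3 the 2 highest samples were those with most macrophage marker RNA, but the other samples did not keep the order of the markers. OGT-sufficient replicate 1, at 3676 CPM of markers, had 10.9 CPM of Lag3. OGT-deficient replicate 1, with the lowest marker level at 1191 CPM, had 15.2 CPM of Lag3. With the marker level as a covariate, chosen after seeing the data, the log2 fold change was 0.33 for Havcr2 (edgeR unadjusted p = 0.241) and 0.71 for Lag3 (unadjusted p = 0.0229), and Pdcd1 and Tigit were -0.67 (unadjusted p = 0.00425) and -1.02 (unadjusted p = 0.00428). Icos was at -0.48 (edgeR unadjusted p = 0.00637) with that covariate. The part of macrophage RNA in the Havcr2 and Lag3 levels was not otherwise tested.

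Btla encodes an inhibitory receptor for HVEM that B cells carry too. It was measured at 78.0, 81.3 and 108 CPM with OGT and 87.6, 71.1 and 77.5 CPM without it, and OGT-sufficient replicate 3 was the highest. That sample was also the highest in all 8 B cell markers, whose sums were 150.4, 89.9 and 327 CPM in the OGT-sufficient and 140.0, 111 and 82.5 CPM in OGT-deficient samples. The Btla log2 fold change of -0.18 ± 0.16 (SE, 95% interval -0.53 to 0.17; edgeR adjusted p = 0.844) became -0.0066 ± 0.13 without that sample. Of the B cell markers, Ebf1 and Cd79b were lower at an unadjusted p under 0.05 (edgeR, log2 fold change -1.67 with unadjusted p = 0.0213 for Ebf1 and -0.71 with unadjusted p = 0.0311 for Cd79b). Without OGT-sufficient replicate 3 neither was, at -0.56 (edgeR unadjusted p = 0.114) and -0.29 (unadjusted p = 0.129), and the median of the 8 markers went from -1.05 to -0.16. The part of B cell RNA in the Btla level was not tested.

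**Figure D3:**
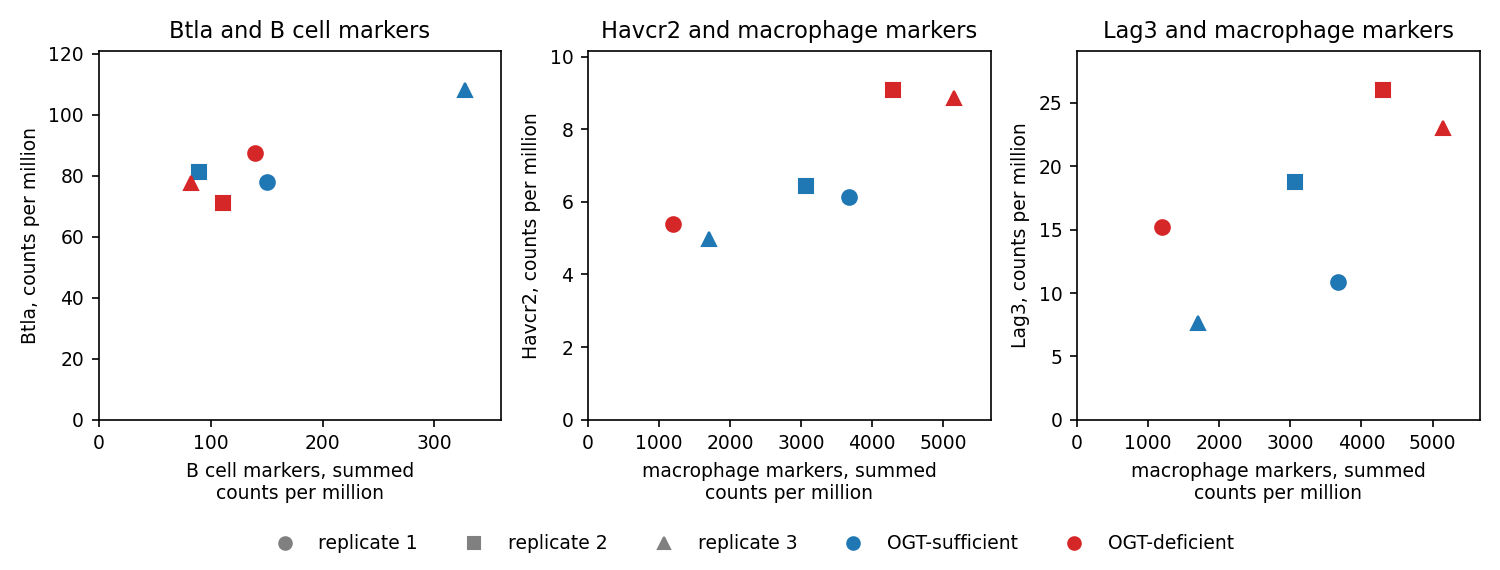
Btla against the summed level of 8 B cell markers, and Havcr2 and Lag3 against that of 10 macrophage markers, both axes in CPM, with one point per sample, shape for the replicate number and colour for the group. OGT-sufficient replicate 3 lies alone at 327 CPM of B cell markers with the highest Btla, and OGT-deficient replicates 2 and 3 lie highest in macrophage markers, Havcr2 and Lag3.

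Cd160, a further receptor for HVEM, stood at 11.7, 12.9 and 9.44 CPM in the OGT-sufficient and 10.5, 9.32 and 11.5 CPM in OGT-deficient samples. The groups overlapped (log2 fold change -0.12 ± 0.21, SE; 95% interval -0.60 to 0.36; edgeR adjusted p = 0.922). Cd160 shares 68 exon bases with Pdzk1 on the opposite strand, 2.57% of its exons, and reads there cannot be told apart without strand. Pdzk1 itself ranged from 3.13 to 6.44 CPM. Cd200, a ligand whose receptor CD200R1 restrains myeloid cells, measured 37.8, 46.1 and 26.7 CPM against 45.5, 34.3 and 43.8 CPM. OGT-sufficient replicate 3 was the lowest of the 6. The log2 fold change was 0.16 ± 0.21 (SE, 95% interval -0.31 to 0.63; edgeR adjusted p = 0.9) and -0.017 ± 0.17 without that sample.

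**Figure D4:**
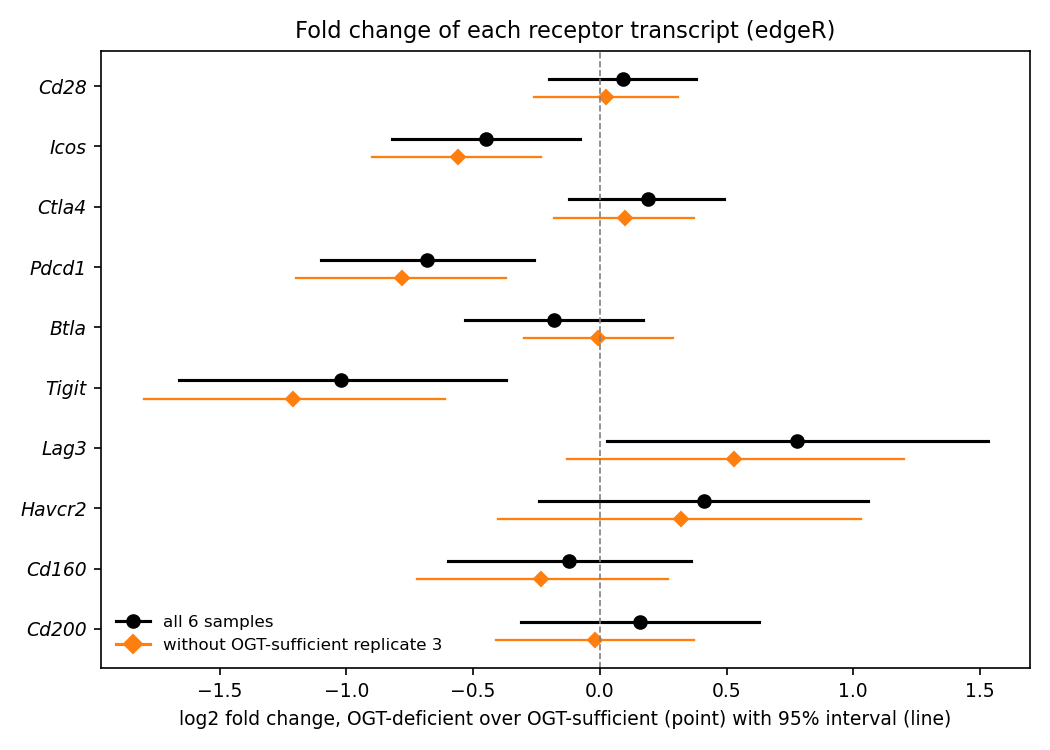
Log2 fold change of each receptor, OGT-deficient over OGT-sufficient, as a point with its 95% interval as a line, from edgeR fits of all 6 samples (black) and of 5 samples without OGT-sufficient replicate 3 (orange). With all 6 samples the intervals of Icos, Pdcd1 and Tigit lie below 0 and that of Lag3 above it, and without that sample the Lag3 interval crosses 0.

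Divided by exon length, the receptors could be ranked within these libraries. Ctla4 was highest at 56.8 ± 6.97 CPM per kilobase of exon (SD over all 6 samples) and was above every other member in every sample, followed by Cd28 at 31.7 ± 3.24. The level of Btla was 24.7 ± 3.82 and that of Icos 23.1 ± 5.16, and each was the higher of the pair in 3 of 6 samples. Next came Pdcd1 at 13.9 ± 4.03, Tigit at 13.2 ± 5.93 and Cd200 at 11.8 ± 2.30, neighbours whose ranges overlapped. Lag3 at 8.01 ± 3.34, Cd160 at 4.12 ± 0.526 and Havcr2 at 2.50 ± 0.643 were the lowest. Lag3 was above Cd160 and Cd160 above Havcr2 in every sample, although the ranges of Lag3 and Cd160 overlapped. Per kilobase, Tigit went from the fifth place in the OGT-sufficient group (17.8 ± 4.55) to the eighth in the OGT-deficient group (8.73 ± 2.47), while the places of Ctla4, Cd28, Pdcd1, Cd160 and Havcr2 were the same in both groups. Icos passed from the third place (26.7 ± 4.17) to the fourth (19.5 ± 3.28), below Btla (26.2 ± 4.85 and 23.2 ± 2.46). These places were close beside their spread. Pdcd1 was at 17.1 ± 2.56 in the OGT-sufficient group, and Pdcd1 and Lag3 at 10.7 ± 1.88 and 10.1 ± 2.64 in the OGT-deficient group. The order also rests on GENCODE M21 exon lengths, while the annotation used for the counts was not given.

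The ligands and counter-receptors differed widely in level in these libraries. Fgl1 had 0 counts in every sample, while Lgals9 had group means of 98.4 (OGT-sufficient) and 123 CPM (OGT-deficient). Of 16 listed genes 13 were tested, 1 was lower and 1 higher at an unadjusted p under 0.05, none passed an adjusted p of 0.1, and the median log2 fold change was -0.13. The lower one was Ceacam1, a ligand of TIM-3, at 6.39, 7.24 and 17.3 CPM against 3.60, 5.54 and 5.22 CPM (log2 fold change -1.10 ± 0.42, SE; edgeR unadjusted p = 0.0274). OGT-sufficient replicate 3 decided that value, which was -0.50 (unadjusted p = 0.15) without it. The higher one was Cd96, which binds CD155 as TIGIT and CD226 do, at 113, 79.7 and 70.5 CPM against 129, 117 and 109 CPM. Its log2 fold change was 0.43 ± 0.18 (SE; edgeR unadjusted p = 0.0376), with 0.70 (unadjusted p = 0.00135) without OGT-sufficient replicate 1 and unadjusted p-values of 0.0654 to 0.117 without OGT-sufficient replicate 2 or 3 or OGT-deficient replicate 1 or 2. The Cd96 groups overlapped, and neither Tigit nor Cd96 passed the adjusted threshold. Cd226 measured 50.5 ± 4.91 and 42.5 ± 2.06 CPM (SD, n = 3; edgeR unadjusted p = 0.0864), and without OGT-sufficient replicate 3 its log2 fold change was -0.32 (unadjusted p = 0.0301). The PD-1 ligands Cd274 and Pdcd1lg2 had log2 fold changes of -0.11 ± 0.12 and -0.62 ± 0.30 (SE), and Cd80 and Cd86, the ligands of CD28 and CTLA-4, of -0.32 ± 0.30 and -0.13 ± 0.40, none at an unadjusted p under 0.05. With OGT-sufficient replicate 3 left out, Pdcd1lg2 was at -0.81 (edgeR unadjusted p = 0.0192), and the list held 2 lower and no higher gene, Pdcd1lg2 and Cd226.

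Of the 16 genes that signal below CD28 and ICOS, Malt1 was lower and Pik3r1 higher at an unadjusted p under 0.05, none passed an adjusted p of 0.1, and the median log2 fold change was -0.06. Malt1 encodes a paracaspase that acts with BCL10 upstream of NF-kB, and stood at 104, 109 and 152 CPM in the OGT-sufficient and 90.4, 80.4 and 75.2 CPM in OGT-deficient samples. The groups did not overlap (log2 fold change -0.57 ± 0.17, SE; edgeR unadjusted p = 0.00754, adjusted p = 0.497), and without OGT-sufficient replicate 3 the value was -0.36 (unadjusted p = 0.0166). Its partner Bcl10 had a log2 fold change of -0.15 ± 0.15 (SE). Pik3r1, a regulatory subunit of the PI3-kinase that CD28 and ICOS recruit, measured 434, 474 and 400.1 CPM against 547, 489.5 and 642 CPM (log2 fold change 0.36 ± 0.14, SE; edgeR unadjusted p = 0.0259). All 3 OGT-deficient samples were the higher ones, and without OGT-deficient replicate 3 the unadjusted p was 0.0818. Pik3cd and Grap2 were also higher when OGT-sufficient replicate 3 was left out, at 0.27 and 0.31 (edgeR unadjusted p = 0.031 and unadjusted p = 0.0382), and the list median was 0.026. None of the 10 genes that signal below the inhibitory receptors had an unadjusted p under 0.05. They included Ptpn6 and Ptpn11, the phosphatases SHP-1 and SHP-2, at log2 fold changes of -0.18 ± 0.13 and -0.025 ± 0.12 (SE), and the list's median was 0.012. Sh2d1a, which encodes the adaptor SAP, was at -0.42 ± 0.23 (SE) and, without OGT-sufficient replicate 3, at -0.58 (edgeR unadjusted p = 0.0264).

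CTLA-4 is held largely inside the cell, and LRBA protects it there from breakdown. Among 9 trafficking genes Lrba was the one at an unadjusted p under 0.05. It measured 188, 195 and 235 CPM with OGT and 169.6, 148 and 144 CPM without it, with no overlap. The log2 fold change was -0.42 ± 0.13 (SE; edgeR unadjusted p = 0.0095, adjusted p = 0.525), and -0.31 (unadjusted p = 0.0272) without OGT-sufficient replicate 3. Without OGT-deficient replicate 2 or 3 the unadjusted p was 0.0509 and 0.0502. The median of the list was -0.026. The 4 factors that destabilise Icos and Ctla4 mRNA, the roquins Rc3h1 and Rc3h2 and the regnases Zc3h12a and Zc3h12d, lay between -0.057 and 0.04, with adjusted p-values of at least 0.956.

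Of 12 transcription factors known to drive these receptors, Batf and Tbx21 were lower and Irf4 higher at an unadjusted p under 0.05, with a median of -0.066 over the list. Irf4, which works with BATF in effector Treg cells, stood at 96.1, 105 and 86.3 CPM against 139, 130 and 163 CPM. Every OGT-deficient sample was above every control (log2 fold change 0.58 ± 0.13, SE; edgeR unadjusted p = 0.00163, adjusted p = 0.306). Batf was at 37.5, 33.8 and 29.4 CPM against 23.6, 21.9 and 27.9 CPM, also without overlap and in the opposite direction (-0.45 ± 0.16, SE; edgeR unadjusted p = 0.0202), with unadjusted p-values of 0.113, 0.0504, 0.0552 and 0.108 without OGT-sufficient replicate 1 or 2 or OGT-deficient replicate 1 or 2. Tbx21, which encodes T-BET, lay between 1.83 and 6.55 CPM in all samples (-0.94 ± 0.39, SE; edgeR unadjusted p = 0.0396). It had an unadjusted p under 0.05 without OGT-deficient replicate 1, where the value was -1.47 (unadjusted p = 0.0041), and not without any of the other 5 samples, where p was 0.0619 to 0.145. Foxp3 itself, a driver of Ctla4, was 239 ± 55.9 and 274 ± 22.6 CPM (SD, n = 3; log2 fold change 0.20 ± 0.17, SE; edgeR adjusted p = 0.84). Nfatc1, Nfatc2, Tox, Prdm1, Maf, Nfil3, Eomes and Bcl6 had unadjusted p-values above 0.05. Prdm1, which encodes BLIMP-1, went from -0.36 to -0.62 (edgeR unadjusted p = 0.0229) without OGT-sufficient replicate 3.

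**Figure D5:**
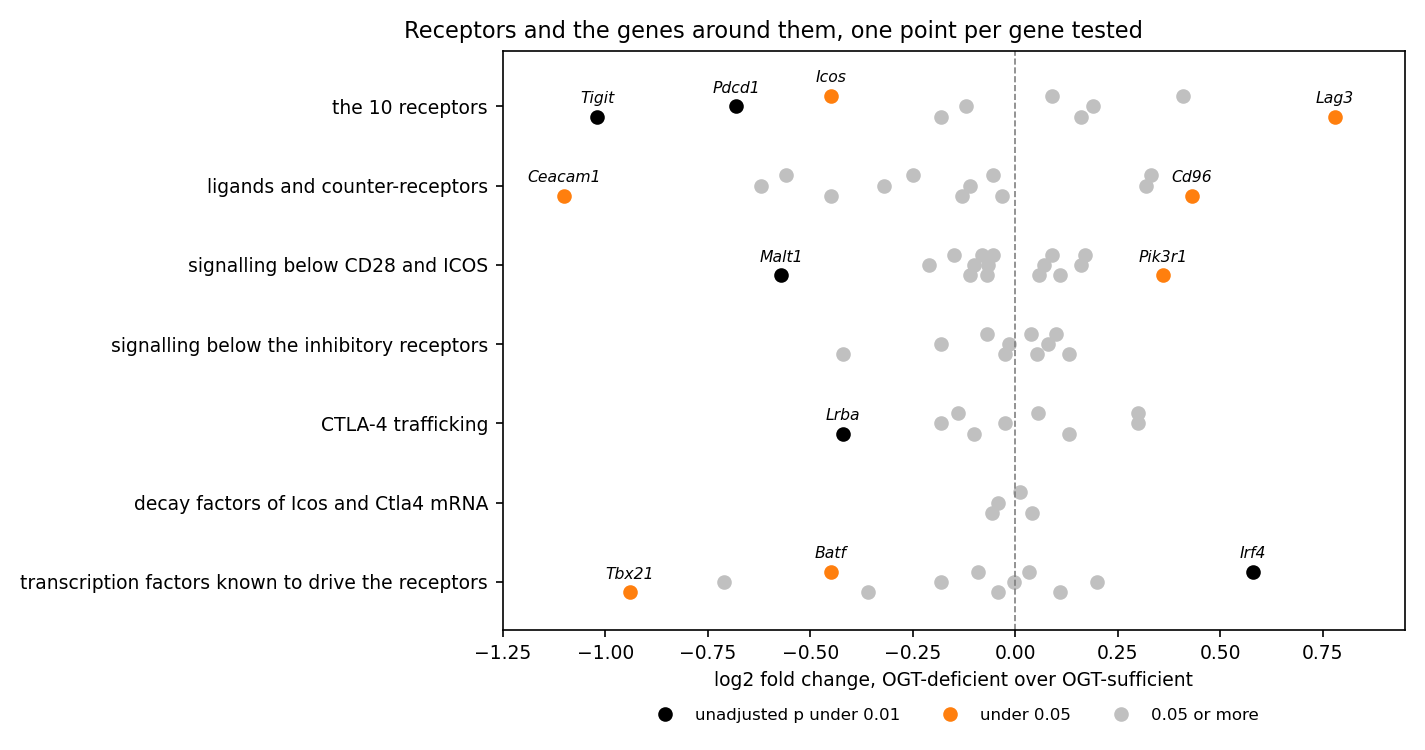
Log2 fold change, OGT-deficient over OGT-sufficient, of each gene tested among the 10 receptors and 6 lists around them, one point per gene, coloured by edgeR's unadjusted p, with names for genes under 0.05. Each list has points on both sides of 0, and the receptors reach from -1.02 (Tigit) to 0.78 (Lag3).

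Markers of cell states and other cells in which these receptors are found were read as whole lists. Follicular T cell markers, which go with high Icos and Pdcd1, summed to 563 to 613 CPM in the OGT-sufficient and 431 to 591 CPM in OGT-deficient samples. Most of it was Tcf7 at 371 to 539 CPM. Of the 4 tested among 6, none had an unadjusted p under 0.05, and the list median was -0.30. Without OGT-sufficient replicate 3 Cxcr5 went from -0.45 to -0.53 (edgeR unadjusted p = 0.0449) and, with Sh2d1a, was under 0.05. Bcl6 was at 0.11, and at 0.17 without that sample, and Tcf7 at -0.17 and -0.11. Ascl2 and Il21 were at 3 counts or fewer in every sample and were not tested, so the fold changes of this list rest on the other 4 genes. CD8 and NK cell markers, which go with Tigit, Lag3 and Cd160, summed to 40.2 to 54.3 and 24.8 to 44.7 CPM, with Ncr1 at 3 counts or fewer throughout. Of the 6 tested among 10, Nkg7 was lower (9.31, 11.5 and 8.13 against 5.91, 3.28 and 5.22 CPM, edgeR unadjusted p = 0.00751). The list median was -0.74, and it was -0.37 without OGT-sufficient replicate 3. Cd8a was at -0.82, Klrk1 at -0.78, Eomes at -0.71 and Prf1 at -0.086, while Cd8b1 was higher at 0.18. None of these 5 had an unadjusted p under 0.05 (edgeR). Of 6 dendritic cell markers tested among 8, Zbtb46 was lower and Ccr7, which Treg cells also express, higher at an unadjusted p under 0.05, with sums of 156 to 196 and 193 to 216 CPM and a median of -0.0072. Without OGT-sufficient replicate 3 neither was, at -0.63 (edgeR unadjusted p = 0.119) and 0.23 (unadjusted p = 0.0678). Ccr7 made up most of the dendritic cell marker sum in each sample, at 103 to 155 CPM. Endothelial and stromal markers summed to 163 to 181 and 149.8 to 216 CPM, nearly all from Pecam1. Among the 10 Treg markers Tnfrsf18 and Lrrc32 were higher at an unadjusted p under 0.05, with a list median of 0.22. Both stayed under 0.05 without OGT-sufficient replicate 3, where Ikzf2 and Nrp1 were also lower, at -0.39 and -0.50 (edgeR unadjusted p = 0.0129 and unadjusted p = 0.00149). The part of any of these cells in the receptor levels was not tested.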

How the data were processed

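Treg RNA was sequenced as paired reads from 6 samples, 3 per genotype, grouped by the genotype in the labels. The submitters' processing notes name Trimmomatic 0.33, Bowtie2 2.2.4.0, featureCounts and the mm10 build, whereas the paper's methods name Cuffquant. Annotation and strand were not given in the sources used here. The authors deposited whole-number counts per gene, used here as they are. The authors' fold changes, p-values and FDR in the same table were not used.

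Counts were fitted over the whole table with edgeR 4.0.16 (R 4.3.3): TMM scaling, filterByExpr at a minimum count of 10, the quasi-likelihood test by genotype, and Benjamini-Hochberg adjustment over 10949 genes. The thresholds were an adjusted p of 0.1 and an unadjusted p of 0.01, after the study, and 0.05 as a description. Standard errors were derived from the log2 fold change and F. Ratios were compared by exact permutation. Scripts were tested on simulated data. Exon lengths and positions are from GENCODE M21 (23375 symbols matched by name and 674 by synonym, 371 not). Members and lists were chosen with earlier results of these data known. All members were named with their values, other genes at an unadjusted p under 0.05, or as ligands, competitors or defining markers. No 2 replicates of a group were the same library: replicates of a group differed by a chi-square of 3.31 to 22 per degree of freedom. Depth allowed a floor of 3 counts, 0.756 to 0.805 CPM. Alternatives were DESeq2 1.42.0, the exact test, other scalings and filters, a replicate block and leaving out each sample.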

Additional observations from a re-analysis of the deposited data

How the results depend on the processing

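Over 15 alternatives the 10 receptors gave 150 fold changes, of which 148 kept the sign of the reported value. Cd28 turned to -0.0051 without OGT-deficient replicate 1 (range with a sample left out -0.0051 to 0.19) and Cd200 to -0.017 without OGT-sufficient replicate 3 (-0.017 to 0.35). No alternative gave a receptor an adjusted p under 0.1. The receptors with an unadjusted p under 0.01, 2 in the reported fit, were 1 in DESeq2 and 0 to 3 when a sample was left out. They were 3 with library size only, without a low-count filter and with the macrophage marker covariate. Those under 0.05, 4 as reported, were 2 or 3 when a sample was left out and 3 with the replicate block. Receptors without overlap, 2 as reported, were 2 to 5 with a sample left out. Fewer samples separate more easily, and no share of all genes is set beside these counts, so they say nothing about the receptors. The log2 difference of the Ctla4 to Cd28 ratio ranged from -0.052 to 0.20 with a sample left out. No other ratio changed sign, but their groups did not overlap, so leaving out a sample could not have changed it. Over all genes, 3 passed an adjusted p of 0.1 as reported, against 40 in DESeq2, 80 in edgeR's exact test, 131 without a low-count filter, 30 with the macrophage marker covariate (added after seeing the data), 0 in the fit with a replicate block and 0 to 9 with a sample left out. Genes at an unadjusted p under 0.01, 202 as reported, were 431 without a filter and 108 to 207 with a sample left out. Same-numbered samples did not deviate together (correlations of -0.281, 0.00726 and -0.118), and the number was not used as a pairing in the reported fit. Correlations from so few samples cannot exclude a pairing. With the replicate block Icos had an unadjusted p of 0.0582 (edgeR), and the log2 fold changes of Pdcd1, Tigit, Icos and Lag3 were -0.68, -1.02, -0.45 and 0.82. The paired ratio differences in the replicate block were 0.10, -0.54 and -0.78. The cause of these shifts was not tested. Tigit, Lag3, Havcr2 and Cd160 rest on the fewest counts.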
